A study of Mus musculus with 8 samples.

Results

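The guanylate-binding protein genes (Gbp genes) of the mouse lie in 1 cluster on chromosome 3 and 1 on chromosome 5, and their RNA was followed with and without interleukin-4 (IL-4) in macrophages grown in culture from bone marrow. Loci of the authors' merged annotation were taken where a coding reference transcript lay inside chr3:142150000-142300000 or chr5:105480000-105780000 of the mouse build mm9. This gave 4 loci of 31020 in all, with 27 of 89219 transcripts, and the loci hold 10 gene models, each a set of overlapping reference transcripts. The mice were C57BL/6, with 4 libraries of untreated cells and 4 of cells given IL-4, the cytokine of type 2 immune responses. Dose and duration of the treatment are not stated. The 4 samples of a group are called biological replicates in the series, with nothing on whether the animals differed, and p-values therefore refer to the spread among the samples at hand.

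Guanylate-binding proteins are large GTPases that are induced by interferons, above all interferon gamma. In macrophages they gather on the vacuoles of intracellular bacteria and parasites and on bacteria in the cytosol, and some of them promote inflammasome activation through caspase-11. Several members carry a C-terminal prenyl group that anchors them to membranes. IL-4 signals through the transcription factor STAT6 and drives the alternatively activated state of macrophages.

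The deposited files carry no gene names. A model was named where its genomic span was within 0.5% of that of a Gbp gene of RefSeq on the same chromosome, and 8 of the 10 models were named this way. On chromosome 3, the order along the plus strand was Gbp5 (chr3:142159898-142185308), Gbp7 (chr3:142193302-142213047), Gbp3 (chr3:142223016-142236176), Gbp2b (chr3:142257811-142282140) and Gbp2 (chr3:142283627-142300972). On chromosome 5, all models lay on the minus strand. They were Gbp4 (chr5:105544786-105568571), Gbp10 (chr5:105644718-105668552), Gbp11 (chr5:105752045-105775491), which RefSeq lists as a transcribed pseudogene, and a pair of models without a matching span. The first of that pair (chr5:105507413-105539311) lay next to Gbp4, where RefSeq lists Gbp9, and the second (chr5:105699721-105722718) lay between Gbp10 and Gbp11, where RefSeq lists Gbp6. They are called unnamed model 1 and unnamed model 2 here. The model called Gbp4 spans 23786 bases, against 23820 for Gbp4 and 23835 for Gbp10 in RefSeq. Its span alone therefore does not tell these genes apart, and the closest was taken. Under the stricter rule used outside the clusters, which also asks for matching neighbours, no chromosome 5 model was named. Genes of the clusters are close copies of one another, and the handling of reads that fit several copies is not stated, so the split of reads between copies is uncertain.

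The annotation joins several of these genes. Locus XLOC_017585 (chr3:142159806-142301064) holds Gbp5, Gbp2b and Gbp2, whose last bases lie past the window. Locus XLOC_021359 (chr5:105505483-105775522) holds all 5 chromosome 5 models. Gbp7 and Gbp3 each have a locus of their own, XLOC_017586 and XLOC_017587. The deposited counts are per locus, while the isoform values (FPKM, fragments per kilobase of each transcript, relative to all fragments mapped in the library) separate the genes within a locus.

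Total counts ran from 23071022 to 27783417 per library. Replicate 4 of both groups stood apart from the other libraries, with 5808 untreated and 5525 IL-4 counts on chromosome Y against at most 7 elsewhere.

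With IL-4, the clusters split. RNA of the Gbp2 locus and of Gbp3 rose, and RNA of Gbp7 and of the joined chromosome 5 locus fell (edgeR's quasi-likelihood test, adjusted p under 0.05 over all loci tested). Thus 2 of the 4 loci rose and 2 fell, where 25.6% of all 13761 tested loci rose and 26.2% fell. The number of calls alone does not set these loci apart from the transcriptome.

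**Figure D1:**
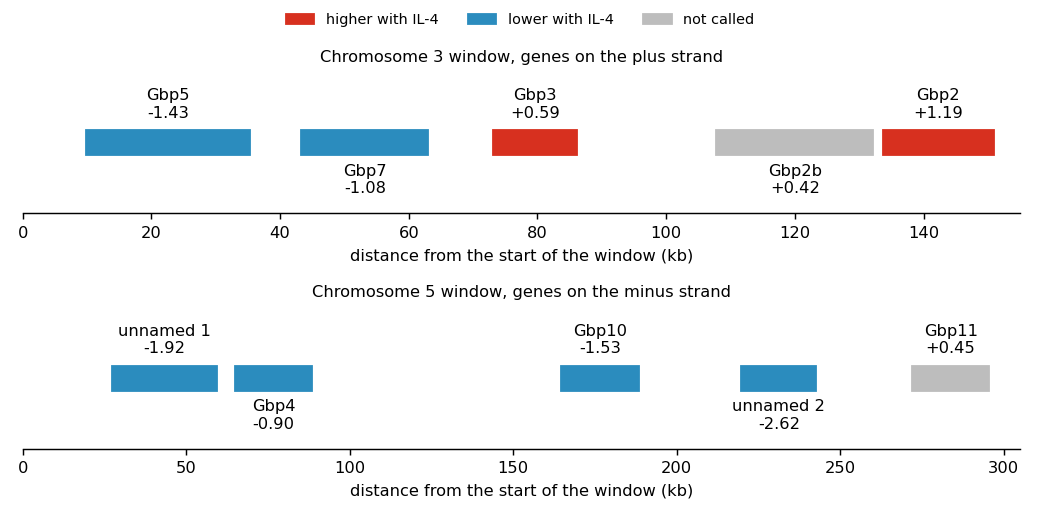
Map of the gene models in the chromosome 3 window (top) and the chromosome 5 window (bottom), with the distance from the window's start in kb on the x axis; the number at each box is the log2 fold change (IL-4 against untreated) of the summed FPKM + 0.1, fitted without a filter on low values, and colour gives the call. Gbp2 and Gbp3 are the called rises, the called falls are Gbp5 and Gbp7 on chromosome 3 and 4 models on chromosome 5, and Gbp2b and Gbp11 are not called.

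The sequences upstream of the chromosome 3 genes are shown because neighbouring genes of that cluster moved in opposite directions. The promoter table used here (RefSeq, build GRCm38.p6) held 6 start sites of 5 of the 11 Gbp genes. In the 250 bases before each start, 3 motifs were searched on both strands: the interferon-stimulated response element in the form GAAA, any pair of bases, GAAA (ISRE-like), the gamma-activated site TTCNNNGAA (GAS), and the STAT6-type site, TTC and GAA with any 4 bases between them. Matches are in capitals, and a match on the reverse strand appears as its reverse complement, so that an ISRE-like match reads TTTC, any pair of bases, TTTC. All windows are on the plus strand. The genes whose RNA rose come first: Gbp2 at chr3:142620413-142620662 and the first and second start of Gbp3 at chr3:142559794-142560043 and chr3:142560106-142560355. In Gbp3, FPKM rose from the annotation's start site TSS28430, while that from TSS28429 overlapped between the groups. The bases before TSS28430 were not searched. Neither Gbp3 window is therefore to be read as the promoter of the transcripts that rose. The genes whose RNA was lower follow: Gbp5 at chr3:142496684-142496933 and Gbp7 at chr3:142530086-142530335.
Gbp2: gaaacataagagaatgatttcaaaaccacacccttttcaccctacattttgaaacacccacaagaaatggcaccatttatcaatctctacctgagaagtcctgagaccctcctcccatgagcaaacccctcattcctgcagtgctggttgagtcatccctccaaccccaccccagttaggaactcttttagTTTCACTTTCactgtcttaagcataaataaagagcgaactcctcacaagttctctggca
Gbp3 start 1: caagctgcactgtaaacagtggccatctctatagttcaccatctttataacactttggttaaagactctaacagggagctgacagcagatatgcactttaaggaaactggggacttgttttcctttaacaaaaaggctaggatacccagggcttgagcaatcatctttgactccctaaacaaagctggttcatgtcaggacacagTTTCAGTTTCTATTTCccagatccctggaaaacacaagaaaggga
Gbp3 start 2: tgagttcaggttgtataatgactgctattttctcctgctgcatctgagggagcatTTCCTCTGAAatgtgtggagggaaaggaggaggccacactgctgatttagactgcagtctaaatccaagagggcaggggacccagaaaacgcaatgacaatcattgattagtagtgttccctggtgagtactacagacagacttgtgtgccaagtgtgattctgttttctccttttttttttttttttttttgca
Gbp5: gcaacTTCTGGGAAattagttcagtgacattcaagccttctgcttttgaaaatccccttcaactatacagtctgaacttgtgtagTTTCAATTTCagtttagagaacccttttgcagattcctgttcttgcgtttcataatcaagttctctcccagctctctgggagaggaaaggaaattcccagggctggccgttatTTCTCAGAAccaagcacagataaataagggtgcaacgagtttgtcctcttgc
Gbp7: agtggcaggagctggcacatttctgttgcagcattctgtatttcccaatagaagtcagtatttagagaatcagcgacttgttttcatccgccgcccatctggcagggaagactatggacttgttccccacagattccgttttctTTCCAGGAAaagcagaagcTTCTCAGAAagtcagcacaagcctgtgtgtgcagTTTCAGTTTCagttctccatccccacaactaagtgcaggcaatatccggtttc

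All 5 chromosome 3 genes, Gbp2b included, had an ISRE-like match in at least 1 window, against 2.98% of all 32851 RefSeq windows of the same length. In Gbp2 the match began 59 bases before the start, in Gbp7 53 bases and in Gbp5 165 bases before it. Gbp3 had a pair of overlapping matches, at 45 and 39 bases before its first start. GAS matches were found in Gbp5, at 245 and 52 bases before the start, and in Gbp7, at 106 and 87 bases, and 7.02% of all windows held one. The windows of Gbp2, Gbp3 and Gbp2b held no match to those GAS letters. The STAT6-type letters occurred once, 195 bases before the second RefSeq start of Gbp3, against 5.85% of all windows. Neither RefSeq start of Gbp3 was matched to a start site of the annotation used for the RNA values. A match is a run of letters and not a measured binding site, and binding was not measured here.

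**Figure D2:**
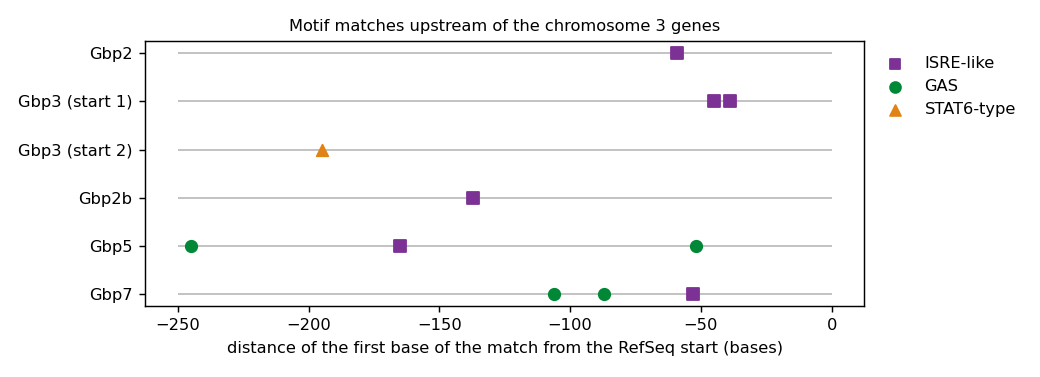
Position of each motif match upstream of the chromosome 3 genes, as the distance in bases of its first base from the RefSeq start (x axis), with 1 line per start site. Both genes with lower RNA, Gbp5 and Gbp7, have 2 GAS matches each, and the STAT6-type match stands alone at the second RefSeq start of Gbp3. The bases before TSS28430, the Gbp3 start site whose transcripts rose, are not shown.

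The joined Gbp2 locus was the most abundant of the 4 after IL-4. Gbp2 is an interferon-induced GTPase that coats pathogen vacuoles. In CPM (counts scaled to the depth of each library), XLOC_017585 stood at 74.1, 74.5, 63.8 and 71.7 in untreated replicates 1 to 4 and at 152.7, 150.0, 166.9 and 123.4 with IL-4. All IL-4 libraries were higher than all untreated ones, and IL-4 replicate 4 was the lowest of its group. The means were 71.0 ± 4.99 and 148.2 ± 18.1 CPM (SD, n = 4 each), and their ratio was 2.09. The fitted change, which also scales the libraries by TMM factors as in all edgeR values here, was 2.24-fold, or 1.17 ± 0.09 (SE) in log2 units (edgeR, adjusted p = 1.68e-06). The counts behind them ran from 1471 to 1988 untreated and from 3339 to 4167 with IL-4.

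Gbp3, another interferon-induced member of the chromosome 3 cluster, rose less. Its locus had 25.0, 26.7, 25.1 and 32.7 CPM in the untreated libraries and 37.5, 40.4, 41.6 and 35.3 CPM with IL-4. The groups did not overlap, but untreated replicate 4 came close to IL-4 replicate 4. The means were 27.4 ± 3.63 and 38.7 ± 2.83 CPM (SD, n = 4 each), with a ratio of 1.42. The fitted rise was 1.52-fold, or 0.61 ± 0.10 (SE) in log2 units (edgeR, adjusted p = 0.000409). A test against a change of 1.5-fold did not call it (edgeR's glmTreat, adjusted p = 0.687).

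Gbp7, which lies between Gbp5 and Gbp3, fell. It had 31.0, 35.7, 34.0 and 44.5 CPM in the untreated libraries and 15.8, 12.5, 14.8 and 21.0 CPM with IL-4. Replicate 4 was the highest of each group, and the groups did not overlap. The means were 36.3 ± 5.79 and 16.0 ± 3.58 CPM (SD, n = 4 each), 2.26-fold apart. The fitted log2 fold change was -1.07 (SE 0.16), which is 2.10-fold lower (edgeR, adjusted p = 0.000231).

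The joined chromosome 5 locus, the most abundant of the 4 in untreated cells, fell most. It had 91.1, 88.3, 77.7 and 117.7 CPM in the untreated libraries and 20.3, 13.8, 17.1 and 24.8 CPM with IL-4. Here too replicate 4 was the highest of each group, and the highest IL-4 value lay far under the lowest untreated one. The means, 93.7 ± 17.0 and 19.0 ± 4.71 CPM (SD, n = 4 each), were 4.93-fold apart, and the fitted log2 fold change was -2.20 (SE 0.19), 4.58-fold lower (edgeR, adjusted p = 2.67e-06).

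**Figure D3:**
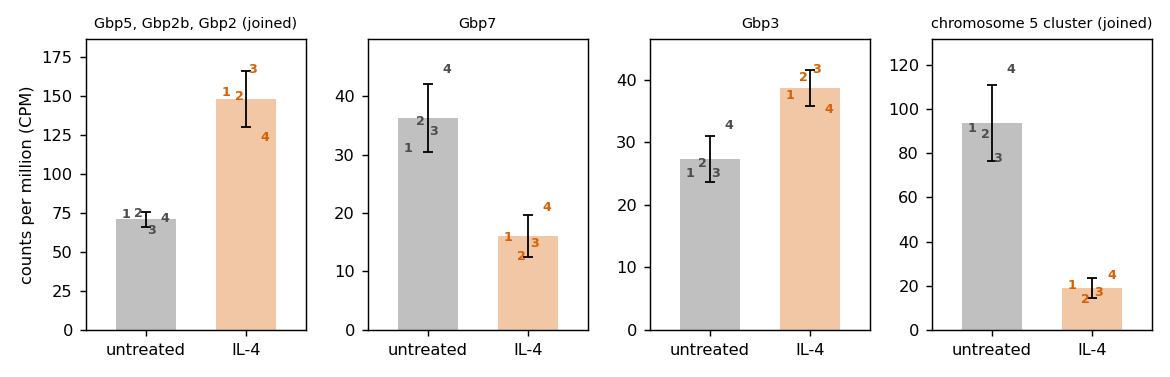
CPM (y axis, from 0, one scale per panel) of the 4 loci in untreated and IL-4 libraries; digits are the replicate numbers, bars the means and error bars the SD of 4 libraries. The groups are apart in all 4 panels, with the Gbp2 locus and Gbp3 higher with IL-4 and Gbp7 and the chromosome 5 locus lower.

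Without both replicate 4 libraries the log2 fold changes were 1.24 for the Gbp2 locus, 0.73 for Gbp3, -1.13 for Gbp7 and -2.24 for the chromosome 5 locus, and all 4 stayed called (edgeR, adjusted p from 4.02e-06 to 9.86e-05).

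The rises and falls offset each other in the total. Summed over the 4 loci, the level was 228 ± 27.6 CPM untreated and 222 ± 15.1 CPM with IL-4 (SD, n = 4 each), and the libraries of the groups overlapped. The share of XLOC_017585 in these counts went from 31.3% ± 3.04 to 66.6% ± 4.28, and that of the chromosome 5 locus from 40.8% ± 2.47 to 8.64% ± 2.57 (SD, n = 4 each). Gbp7 went from 15.9% ± 1.33 to 7.30% ± 2.04 and Gbp3 from 12.0% ± 0.536 to 17.4% ± 0.864 of the counts. The groups did not overlap for any of these shares, and no test was run on them. In bulk RNA, a change in the number of cells that make a transcript and a change in the RNA per cell cannot be told apart.

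Within the loci, FPKM was summed over the transcripts of each gene model, leaving out transcripts whose exons meet several models. Gbp2 was the highest model of the family in both groups. It stood at 18.2, 18.2, 15.6 and 17.2 FPKM untreated and at 40.5, 40.5, 44.6 and 33.5 FPKM with IL-4. The change was 1.19 ± 0.09 (SE) on log2(FPKM + 0.1), the scale of all fold changes of FPKM given here (limma, adjusted p = 7.08e-06). Gbp3 followed with 6.77 ± 0.912 FPKM untreated and 10.2 ± 0.665 with IL-4 (SD, n = 4 each), a change of 0.59 ± 0.10 (SE; limma, adjusted p = 0.000754). Gbp7 came next in both groups, with 3.90 ± 0.609 and 1.81 ± 0.419 FPKM and a change of -1.08 ± 0.16 (SE; limma, adjusted p = 0.000527). Unnamed model 1, the highest of the chromosome 5 models, had 2.42, 2.10, 2.31 and 2.60 FPKM untreated and 0.710, 0.427, 0.536 and 0.538 with IL-4. Its libraries were well apart. It reached 1 FPKM in the untreated libraries alone, so its test is taken from the fit without a filter on low values, at -1.92 ± 0.15 (SE; limma, adjusted p = 6.73e-05). These were the 4 of 10 models that reached 1 FPKM in at least 4 libraries. Among all 11055 models above that filter, 25.4% rose and 24.6% fell.

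The other 6 models were below that filter, and their tests come from the fit without a filter, in which 16.8% of 22835 models rose and 16.6% fell. Gbp5, a family member linked to NLRP3 inflammasome assembly, lies in the locus that rose but had less RNA with IL-4. Its values were 0.985, 0.663, 0.772 and 0.831 FPKM untreated and 0.316, 0.172, 0.198 and 0.282 with IL-4, with no overlap and a log2 fold change of -1.43 (SE 0.18; limma without a filter, adjusted p = 0.000869). Unnamed model 2 had 1.70, 1.40, 0.955 and 1.85 FPKM untreated and 0.228, 0.101, 0.128 and 0.160 with IL-4. Its mean was 9.58-fold lower, with a fitted log2 fold change of -2.62 (SE 0.24; limma without a filter, adjusted p = 0.000164). Gbp10 went from 0.286 ± 0.0680 to 0.0319 ± 0.0085 FPKM (SD, n = 4 each) and Gbp4 from 0.141 ± 0.0333 to 0.0280 ± 0.0118. Both pairs of groups were apart (log2 fold changes -1.53 and -0.90; limma without a filter, adjusted p = 0.000144 and 0.000791). At these levels the pseudocount shrinks the fitted change, and the means of Gbp10 differed 8.96-fold and those of Gbp4 5.02-fold.

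Gbp11 and Gbp2b were not called. Gbp11 was at 0.0868, 0.0296, 0.0492 and 0.107 FPKM untreated and at 0.144, 0.0669, 0.114 and 0.198 with IL-4, and the groups overlapped (limma without a filter, adjusted p = 0.159). With transcripts that meet several models shared equally between them, the log2 fold change of Gbp11 turned from 0.45 to -2.01 (limma, adjusted p = 5.73e-05). The transcripts shared with Gbp11 have at most 0.952% of their nucleotides in it and at least 57.2% in unnamed model 1. The value of -2.01 therefore follows those transcripts and says nothing of the direction of Gbp11. Gbp2b was at or near 0 in all untreated libraries and in IL-4 replicates 1 and 3, and at 0.0804 and 0.0757 FPKM in IL-4 replicates 2 and 4. Its log2 fold change was 0.42 (limma without a filter, adjusted p = 0.197), against 1.08 (limma, adjusted p = 0.000211) with shared transcripts. Among these, TCONS_00051141 has 75.6% of its nucleotides in Gbp2 and 20.6% in Gbp2b.

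**Figure D4:**
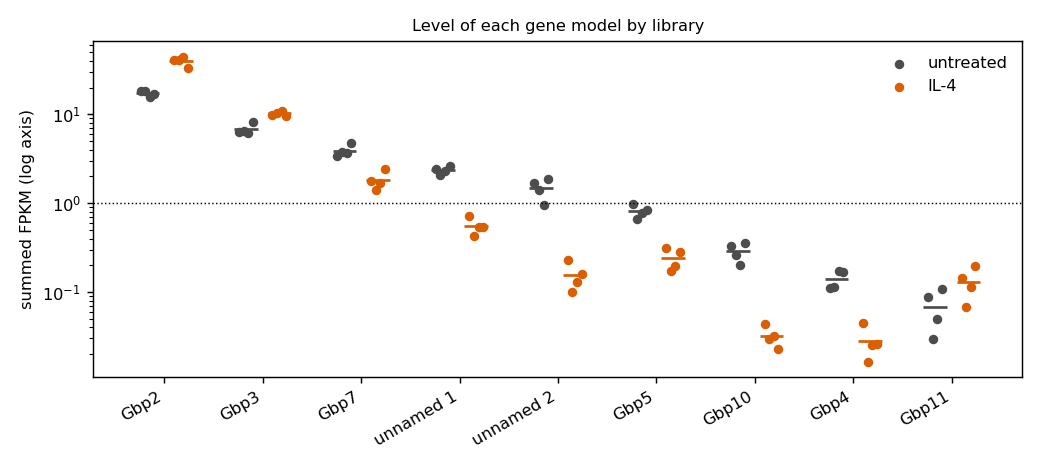
Summed FPKM of 9 gene models in each library (y axis, log scale), ordered by the untreated mean; points are libraries, short lines are group means, the dotted line is the filter at 1 FPKM, and Gbp2b is left out because most of its values are at or near 0. Gbp2 and Gbp3 are higher with IL-4, the groups of Gbp11 overlap, and the other models are lower with IL-4 without overlap.

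In untreated cells the order of the models was Gbp2, Gbp3, Gbp7, unnamed model 1, unnamed model 2, Gbp5, Gbp10, Gbp4, Gbp11 and Gbp2b. Of the neighbours in that order, the libraries of unnamed model 2 and Gbp5 overlapped and those of the others did not. With IL-4 the first 4 places were the same, followed by Gbp5, unnamed model 2, Gbp11, Gbp2b, Gbp10 and Gbp4. From Gbp5 downward, each model overlapped the next. Both orders leave out transcripts that meet several models. TCONS_00062754, TCONS_00062755 and TCONS_00062756, which lie mainly in unnamed model 1, had means of 2.45, 2.83 and 2.98 FPKM untreated. With IL-4 their means were 0.46, 0.688 and 0.562 FPKM. The place of unnamed model 1 therefore rests on leaving them out.

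Most of the chromosome 5 signal sat in assembled transcripts that meet several models but lie mainly in unnamed model 1. Transcripts that meet several models carried 66.4% ± 1.93 of the locus' summed FPKM untreated and 65.9% ± 5.77 with IL-4 (SD, n = 4 each). The summed FPKM of the locus was 12.9 ± 2.42 untreated and 2.66 ± 0.674 with IL-4. The main ones were TCONS_00062754, TCONS_00062755 and TCONS_00062756, which share a start site with Gbp11 and reach past unnamed model 1. Between 57.2% and 64.6% of their nucleotides lay in exons of unnamed model 1, and at most 0.952% in those of Gbp11. Their log2 fold changes were -2.17, -1.92 and -2.62 (limma without a filter, adjusted p = 0.00112, 0.00459 and 0.0689), of which the last was called with the filter only (limma, adjusted p = 0.0133). TCONS_00062756 varied most within a group, from 0.0165 to 1.24 FPKM in the IL-4 libraries, and without IL-4 replicate 1, its lowest library, it was at -1.94 with the filter (limma, adjusted p = 0.00509). The single transcript of unnamed model 1, TCONS_00062757, fell by 1.92 (limma without a filter, adjusted p = 0.000279).

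On chromosome 3, the assembled transcript TCONS_00051141 has 507 exonic nucleotides of Gbp2b and 1857 of Gbp2. It rose from 1.42 ± 0.308 to 3.02 ± 0.229 FPKM (SD, n = 4 each), by 1.05 ± 0.16 (SE; limma, adjusted p = 0.000839), and thus moved with the Gbp2 transcript TCONS_00051142 (1.19). The Gbp7 transcript TCONS_00051134 had a log2 fold change of -1.04 (limma, adjusted p = 0.00152). Together, 9 of the 27 transcripts passed the FPKM filter. Of these, 3 rose and 5 fell, where 19.8% of the 17500 isoforms tested rose and 18.5% fell. Among the falls, TCONS_00062754 and TCONS_00062757 passed the filter through the untreated libraries alone, where they are higher, so nothing is read from the count of falls. It was 3 of 7 with any 1 untreated library left out. The remaining one was the assembled Gbp3 transcript TCONS_00051137, with 1.42 ± 0.328 and 1.59 ± 0.301 FPKM and overlapping groups (limma, adjusted p = 0.580).

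Gbp3 has a pair of start sites in the annotation, TSS28429 at chr3:142223016 and TSS28430 at chr3:142223572 of mm9. They lie further apart than the RefSeq pair shown above, so the second RefSeq start is not to be taken as TSS28430. Motifs before TSS28430 itself were not searched. The reference transcript TCONS_00051139, from the start site TSS28430, rose from 5.06 ± 0.670 to 8.63 ± 0.457 FPKM (SD, n = 4 each; log2 fold change 0.77; limma, adjusted p = 0.00042). Transcripts from the other start site, TSS28429, summed to 1.72 ± 0.388 and 1.59 ± 0.301 FPKM and overlapped between the groups. The share of TSS28430 was 80.8%, 73.3%, 71.7% and 73.2% untreated and 87.7%, 83.7%, 82.5% and 84.2% with IL-4. The groups were apart, untreated replicate 1 being nearest to the IL-4 libraries. The test of the ratio between TCONS_00051139 and the rest of the locus gave a log2 change of 0.60 (SE 0.22), which was not called (limma, adjusted p = 0.144). Without untreated replicate 1 it was 0.78 and was called (limma, adjusted p = 0.0438). By that test 0 of the 3 loci with several isoforms above the filter shifted in isoform use, against 15.4% of all 4105 loci tested. At an unadjusted p under 0.05 it was 1 of 3, Gbp3, and limma's diffSplice called 0.

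Beside the member loci, 13 coding loci lay wholly or partly outside the windows and within 500 kb of them. On chromosome 3, 0 of the 4 tested neighbours were called by edgeR, 0 had an unadjusted p under 0.05 and DESeq2 called 0, while of 8 on chromosome 5, 3 rose and 2 fell, or 3 fell with the replicate number as a block. The smaller fall of that pair, at XLOC_021357 (-0.53), did not pass when IL-4 replicates 2 or 3, or untreated replicates 1 or 4, were left out singly (edgeR, adjusted p from 0.0503 to 0.0702). These shares, too, stand beside 25.6% and 26.2% of all loci. The 1 neighbour that changed 2-fold or more was XLOC_021358 (chr5:105443172-105482580), next to the chromosome 5 cluster on the same minus strand. Its transcription start lies inside the window, and most of the locus lies outside it. RefSeq lists Gbp8 beyond Gbp9 there, but the spans did not match and the locus stays unnamed. It had 13.5, 10.5, 11.2 and 15.6 CPM untreated and 4.37, 3.71, 4.84 and 5.18 with IL-4, with no overlap and a change of -1.38 ± 0.16 (SE) in log2 units (edgeR, adjusted p = 3.12e-05).

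Other genes of the interferon pathways were paired with loci by their spans, which worked for 74 of 133 list symbols. All counts of rises and falls in these lists are to be read against the 25.6% and 26.2% of all tested loci, and the difference from these shares was not tested. Immunity-related GTPases such as Igtp, Irgm2 and the Tgtp proteins are a second set of interferon-induced GTPases that act on the same vacuoles. The list used here also holds Gvin1, Irgq and Irgc1, which that description does not cover. Of 6 tested loci on the list 1 rose, 3 fell and 2, Gvin1 and Irgq, were not called. Their median log2 fold change was -0.43 against -0.02 over all loci. Tgtp2 fell from 8.09 ± 3.55 to 0.621 ± 0.141 CPM, by 3.59 on the log2 scale (edgeR, adjusted p = 8.06e-06). The joined locus of Igtp and Irgm2 fell by 1.63 and that of Tgtp1 by 0.74 (edgeR, adjusted p = 2.32e-06 and 0.00375). Irgc1, known from testis, rose from a low level, 0.241 ± 0.105 to 4.18 ± 0.941 CPM, by 4.18 on the log2 scale (edgeR, adjusted p = 4.28e-07).

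Of 8 loci for interferon gamma receptor signalling, 3 rose, 3 fell and 2 were not called (median 0.13), while DESeq2 called 5 as higher. Socs1, an inhibitor of JAK kinases, rose from 0.859 ± 0.220 to 29.9 ± 5.54 CPM, by 5.23 on the log2 scale. Jak2, a kinase of the receptor, rose by 0.88. Irf8, a transcription factor of the myeloid lineage, fell from 321.6 ± 10.4 to 128.2 ± 10.1 CPM, by 1.22, and Irf1, an interferon-induced transcription factor, by 0.69 (edgeR, adjusted p = 8.74e-09, 3.30e-05, 2.19e-07 and 0.0123 in the order named). The Irf1 locus shares 54.2% of its exonic nucleotides with another locus and had 3.03 ± 0.548 CPM untreated. Ifng itself had 0 counts in all 8 libraries.

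In the list of type I interferon signalling, 0 of 4 tested loci rose and 2 fell by edgeR (median -0.50), with 0 rises also at an unadjusted p under 0.05 and by DESeq2. These were Stat2 and Irf9, which encode transcription factors of that pathway. Stat2 went from 91.8 ± 12.4 to 37.4 ± 1.80 CPM and Irf9 from 128.2 ± 12.3 to 62.3 ± 2.78 CPM (SD, n = 4 each), falling by 1.19 and 0.94 (edgeR, adjusted p = 2.49e-06 and 3.63e-06). Among inflammasome genes, 0 of 3 rose and 2 fell by edgeR (median -0.63), again with 0 rises at an unadjusted p under 0.05 and by DESeq2. Nlrp3, a sensor, fell from 59.9 ± 3.09 to 7.97 ± 3.27 CPM, by 2.80, and Casp4, the mouse gene for caspase-11, by 0.63 (edgeR, adjusted p = 2.21e-06 and 0.00359).

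Of the genes that place these GTPases on vacuoles through the autophagy conjugation machinery, 3 of 5 tested rose and 1 fell (median 0.20). Atg7, Atg3 and Atg5, enzymes and partners of that conjugation, rose by 0.50, 0.44 and 0.20 on the log2 scale, and Trim21, an interferon-induced ubiquitin ligase, fell by 1.02 (edgeR, adjusted p = 0.000185, 0.00107, 0.0242 and 2.23e-06 in the order named). The groups of Atg5 overlapped, and its call was lost without untreated replicate 2, 3 or 4 (edgeR, adjusted p = 0.0679, 0.0745 and 0.0544), which leaves 2 rises. The Atg7 locus shares 58.0% of its exonic nucleotides with another locus. Of 4 loci for prenylation, 0 were called by edgeR (median 0.00), 0 had an unadjusted p under 0.05 and DESeq2 called 0. No list here was set against other genes by a test.

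**Figure D5:**
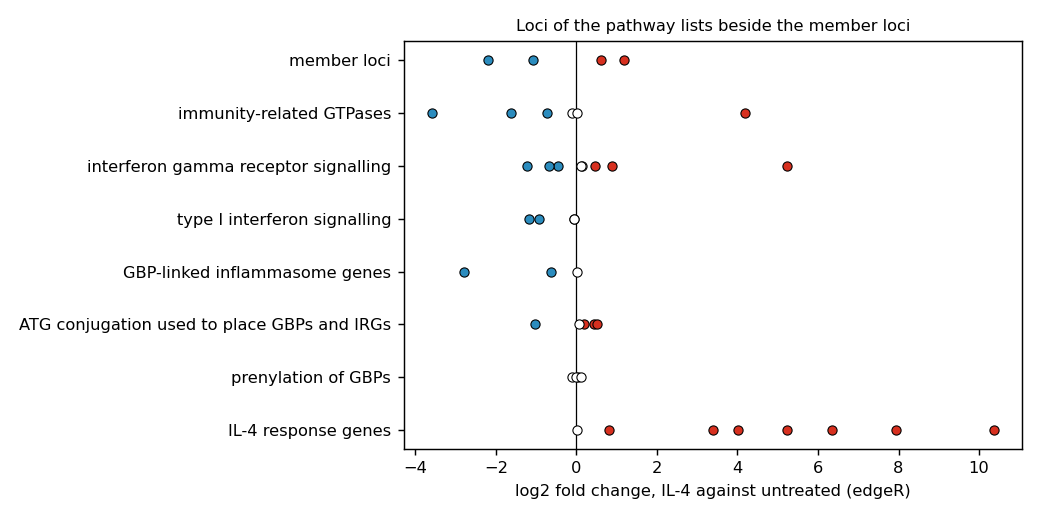
Log2 fold change (x axis, IL-4 against untreated, edgeR) of each tested locus, with 1 line per list and the 4 Gbp loci on top; filled points have an adjusted p under 0.05 (red higher, blue lower) and open points do not. On the list of immunity-related GTPases, Irgc1 is the called rise, and the loci of Tgtp2, Tgtp1 and Igtp with Irgm2 are the called falls. No locus for type I interferon signalling or the inflammasome was called as higher.

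The treatment and the cell type were read from lists as well. Of 8 tested IL-4 response genes 7 rose (median 4.62), led by Chil3, Cdh1, Arg1 and Socs1 with log2 fold changes of 10.38, 7.94, 6.36 and 5.23 (edgeR, adjusted p = 1.07e-10, 3.56e-09, 1.66e-09 and 8.74e-09). Of 7 macrophage markers 2 rose and 4 fell (median -1.04), or 5 fell with the replicate number as a block, the added one being Csf1r (edgeR, adjusted p = 0.0561 without and 0.0327 with the block). Fcgr1, an interferon-induced Fc receptor, fell by 5.47, Adgre1 by 1.36 and Mertk by 1.15, while Itgam rose by 1.44 (edgeR, adjusted p = 3.95e-09, 6.68e-06, 1.62e-06 and 1.39e-06). Adgre1 stayed at 1400 CPM or more in all libraries. The loci of Tgtp1, Irf9, Chil3 and Itgam join the named gene with further models. The Csf1r locus, at 1.62 ± 0.171 CPM untreated, shares 80.8% of its exonic nucleotides with another locus, and its FPKM summed to 292.9 ± 20.4 untreated and 199.0 ± 9.07 with IL-4.

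In CPM, the markers of other cells summed to at most 12.8 per list in any library. The summed CPM of 5 dendritic cell markers ran from 0.709 to 1.41 untreated and from 0.518 to 0.813 with IL-4. For 6 T cell markers it ran from 0.501 to 0.780 and from 0.333 to 0.468, and for 4 stromal markers it was at most 0.125 in any library. The sum of 5 neutrophil markers was 5.24 to 10.0 untreated and 7.78 to 8.43 with IL-4. The 4 mast cell and basophil markers went from 6.34 to 12.8 down to 0.751 to 1.15, through Kit, which fell by 4.92 (edgeR, adjusted p = 1.36e-07). No B cell marker was paired with a locus. The part of these markers in the Gbp results was not tested.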

How the data were processed

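Per the labels' protocols, total RNA was DNase-treated, depleted of ribosomal RNA and made into TruSeq libraries. Build mm9 and the tools HTSeq, Cufflinks 2.1.1, TopHat2 2.0.9 and CASAVA 1.8.2 come from the submitters' processing notes. Settings for strand and for reads with several fits were not given in the sources used. The authors deposited integer counts per merged locus and, per the file headers, FPKM per transcript, with the merged annotation.

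Counts of all loci were tested with edgeR 4.0.16 (R 4.3.3; TMM, default expression filter, two-sided quasi-likelihood test, Benjamini-Hochberg adjustment, threshold 0.05). FPKM was tested with limma 3.58.1 on log2(FPKM + 0.1) for isoforms at 1 FPKM or more in at least 4 libraries, and likewise after summing per gene model, a result added after seeing the data. Isoform use was tested as the log2 ratio of an isoform to the rest of its locus. Alternatives were DESeq2 1.42.0, other filters and pseudocounts, left-out libraries and a replicate block. Procedures were tested on simulated data. FPKM values have an unknown depth.

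Names outside the clusters were given where the span was within 0.5% of a RefSeq gene (GRCm38.p6) and at least 2 of 5 coding neighbours on each side had equal spans, and kept unless strands differed. Before the strand check, strands agreed for 98.27% of 7910 pairs. Named are all member loci and their isoforms above the filter, neighbours called at 2-fold or more, and up to the 4 largest called changes per list. The other gene models were added after seeing the data.

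The replicate numbers may pair the samples, and they entered alternative fits only, as a block. Deviations from the group means correlated within each pair (r = 0.39, 0.149, 0.228 and 0.179). Replicate 4 of both groups had 5808 and 5525 chromosome Y counts, against at most 7 elsewhere. These are hints from the data and not from the labels. Unmatched numbers gave r from -0.268 to 0.261, so not every library was most like its own number. The fits are without a replicate block unless stated. The members and lists were chosen with earlier results of these data known.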

Additional observations from a re-analysis of the deposited data

How the results depend on the processing

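All 4 loci kept their direction and call in all 16 alternatives, except Gbp3 in the test against 1.5-fold (edgeR's glmTreat, adjusted p = 0.687), which left 1 rising locus. The replicate block changed no call of a member locus, isoform or gene model; with it the chromosome 5 locus stood at -2.21 and Gbp7 at -1.08. The count of isoforms that fell, 5, was 9 without a filter, 0 at 5 FPKM or more, 3 to 5 with 1 library left out and 2 without both replicate 4 libraries. The count of gene models that fell, 2, was 6, 0, 1 to 2 and 1 in the same order, and 4 with transcripts shared between models. With a library left out, the filter still asks for 4 libraries, so fewer isoforms were tested (7 of 27 without any one untreated library). Without a filter TCONS_00062756 was not called (-2.62; limma, adjusted p = 0.0689). Loci with a shift in isoform use, 0, were 3 with a pseudocount of 1, 3 without a filter, and 0 to 1 with a library left out, the 1 being Gbp3 without untreated replicate 1; the cause was not tested. Of the values of the 4 loci and of the isoforms and gene models above the filter, 236 kept their direction and side of the threshold under these settings, 2 lost the call and 0 reversed. Among models below the filter, Gbp11 reversed (0.45 to -2.01) and Gbp2b became called (1.08) with shared transcripts, mainly through transcripts that lie mostly in other models. Depth limits what can be said of models under 1 FPKM.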

Other observations

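The 4 loci did not all vary together within the groups. Taken as deviations of log2 CPM from the group means over the 8 libraries, Gbp7 and the chromosome 5 locus, both lower with IL-4, had a Pearson r of 0.93, replicate 4 being the highest in both groups for each. The Gbp2 locus and Gbp3, both higher with IL-4, had an r of 0.48. Pairs that moved in opposite directions with IL-4 had lower values. Gbp7 had an r of -0.38 with the Gbp2 locus and 0.28 with Gbp3. The chromosome 5 locus had -0.18 with the Gbp2 locus and 0.26 with Gbp3. These values share libraries and their depth, and are given as a description.

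Among 10792 coding loci outside the windows, the 5 whose deviations were most like the mean deviation of the 4 loci were the locus of Nosip (r = 0.991), XLOC_017600 (chr3:145585768-145597247, 0.985), XLOC_020617 (chr5:108026399-108090866, 0.985), the locus of Tmbim4 (0.977) and XLOC_021303 (chr5:92775667-92777880, 0.967). With IL-4, XLOC_021303 fell by 5.44 on the log2 scale (edgeR, adjusted p = 1.25e-05), while Nosip was at -0.16 (edgeR, adjusted p = 0.0851). These loci were picked as the highest of many over 8 libraries, and the values are a description.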
